A study of Homo sapiens with 6 samples.

Results

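The CDK inhibitor genes described here are 7 of the 15953 genes measured, and they were taken by name: the INK4 genes CDKN2A, CDKN2B, CDKN2C and CDKN2D, the KIP genes CDKN1B and CDKN1C, and CDKN3. All 7 were present in the files. RNA-seq was run on total RNA of EJ, a cell line derived from human bladder cancer. One group of 3 libraries came from cells that carried a lentiviral negative control (shNC) and the other group of 3 from cells in which STIL, a gene needed for centriole duplication, was stably knocked down by lentivirus (shSTIL). The column headings carry the prefix si in place of sh, and the groups follow the sample labels. The number of hairpins and clones is not given in the sources used here, nor whether the replicates were separate cultures, so the p-values measure only the spread between these libraries, which may be technical.

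INK4 proteins bind the kinases CDK4 and CDK6 and keep D-type cyclins from activating them, which holds RB1 in the state that restrains entry into S phase. KIP proteins bind whole cyclin-CDK complexes, above all those of CDK2, and can also help D-type cyclins assemble with their kinases. CDKN3 belongs to neither family by structure: it is a phosphatase that removes the activating phosphate from CDK2 and CDK1. Loss of the locus that holds CDKN2A and CDKN2B is a common event in bladder cancer. CDKN2C is a known E2F target that is transcribed around S phase, CDKN2B is a known target of TGF-beta signalling, and CDKN3 mRNA is known to peak in G2/M.

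The libraries held 16214800 to 16431200 reads in shNC and 16734500 to 16901600 in shSTIL, as recovered from the log2 CPM values. Log2 CPM is log2 of the reads of a gene relative to the scaled size of its library. The scaling factors were 0.981 to 0.992 in shNC and 1.012 to 1.019 in shSTIL. STIL stood at 25.2% of its shNC level in shSTIL cells (log2 fold change -1.99, limma adjusted p = 6.1e-12). Of the epithelial markers, KRT18 (mean log2 CPM 9.32 in shNC) and KRT8 (8.56) were abundant, and so was CD44 (10.01) of the urothelial basal list. KRT8 fell (log2 fold change -0.70), while KRT18 and CD44 were not called. EPCAM had 15 to 21 reads in a library and CDH1 at most 3. Among urothelial markers PPARG had 302 to 405 reads in a library and rose (log2 fold change 0.26). UPK1B had 5 to 20 reads and fell (-1.12, limma adjusted p = 0.0035). UPK1A had 19 to 33 and GATA3 4 to 9 reads, and UPK2 and KRT20 had at most 5 and 1. Of the basal list, KRT5 had at most 1 read and KRT17 at most 4. Sums over markers were taken as CPM of all recovered reads, without scaling. The 4 mesenchymal markers summed to 1550 to 1573 CPM in shNC and 981 to 1003 in shSTIL, mostly VIM (mean log2 CPM 10.52 in shNC). Of 7 markers of other cells, 3 were measured and summed to 2.9 to 3.9 CPM in shNC and 1.4 to 2.0 in shSTIL, mostly COL1A1, which had 21 to 59 reads in a library and fell (-0.96, limma adjusted p = 0.0020), while PECAM1 had 1 to 7 reads and VWF no more than 2, and the part of either list in the results was not tested.

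Promoter sequences were read from RefSeq (GRCh38.p14), where 6 of the 7 genes had 9 windows of 300 bases around an annotated start. CDKN1C had none. The following words were searched on both strands: an E2F site (TTTCCCGC, TTTGGCGC, TTTCGCGC, TTTGCCGC, TTCCCGCC or TTGGCGCC), the cell cycle homology region known as CHR (TTTGAA or TTCGAA), the CCAAT box (CCAAT) and a FOXO site (GTAAACA). CDKN2C has 3 windows, and the one shown, with 71.3% GC, is printed because CDKN2C fell most of the 7 genes and this window holds the only E2F word among the 9. CDKN3, which also fell, is shown for the only CHR word and for 2 CCAAT boxes around it. CDKN2B, which rose most, is shown because none of the words occurs in its window. The sequences run 5′ to 3′ on the strand of the gene, and capitals mark the words.
CDKN2C, chr1:50968456-50968755, plus strand: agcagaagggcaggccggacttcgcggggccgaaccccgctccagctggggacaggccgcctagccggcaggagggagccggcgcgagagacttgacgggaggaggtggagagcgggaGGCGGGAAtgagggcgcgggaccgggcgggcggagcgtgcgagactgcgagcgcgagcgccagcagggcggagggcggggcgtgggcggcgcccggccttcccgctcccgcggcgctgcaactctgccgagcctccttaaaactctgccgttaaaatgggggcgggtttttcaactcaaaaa
CDKN3, chr14:54396757-54397056, plus strand: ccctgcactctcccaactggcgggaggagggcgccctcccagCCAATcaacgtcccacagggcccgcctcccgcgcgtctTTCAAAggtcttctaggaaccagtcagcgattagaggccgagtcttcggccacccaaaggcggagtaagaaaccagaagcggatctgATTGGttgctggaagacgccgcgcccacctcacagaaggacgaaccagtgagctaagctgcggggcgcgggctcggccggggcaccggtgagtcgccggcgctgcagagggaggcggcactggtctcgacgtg
CDKN2B, chr9:22009256-22009555, minus strand: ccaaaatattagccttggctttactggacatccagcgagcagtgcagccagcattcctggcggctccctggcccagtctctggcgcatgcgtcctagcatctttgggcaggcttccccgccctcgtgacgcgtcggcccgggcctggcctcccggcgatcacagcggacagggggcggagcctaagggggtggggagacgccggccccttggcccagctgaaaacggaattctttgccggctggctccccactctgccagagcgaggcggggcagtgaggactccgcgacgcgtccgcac

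The E2F word of CDKN2C, GGCGGGAA on this strand, begins 132 bases before the annotated start. The CHR word of CDKN3, TTCAAA, begins 170 bases before the start, between CCAAT boxes that begin 208 and 83 bases before it. An E2F word occurs in 6.26% of all 35116 promoter windows, a CHR word in 16.4%, a CCAAT box in 34.6% and the FOXO word in 3.42%. With 9 member windows, no departure from these shares is read. CCAAT boxes also occur in the windows of CDKN1B (3), CDKN2D (1) and the third start of CDKN2C (1). Neither window of CDKN2A holds any of the words, and no member window holds the FOXO word. CDKN2D also fell, and its window holds no E2F or CHR word. The 3 windows shown were picked by the change of the gene and by the words, so no link between word and direction is read. A match describes letters only, and the RNA-seq values are summed over all starts of a gene, so they cannot be assigned to one window.

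The question asked of these genes was how their mRNA stood in STIL-knockdown cells, given that INK4 and KIP proteins act at the G1 to S step. CDKN2C and CDKN2D fell, CDKN2B and CDKN1B rose, and CDKN3 fell by a small amount, while CDKN2A and CDKN1C were not called. CDKN2C dropped to 0.448-fold of its shNC level and CDKN2B rose 1.95-fold, so the INK4 family moved in both directions. With a limma adjusted p under 0.01 over all genes, 3 of the 7 genes were lower and 2 higher, against 23.6% of all genes lower and 23.5% higher. In 5 of the 7 genes no shSTIL library overlapped with any shNC library, against 60.3% of all genes. With 7 genes, no departure from these background shares is read from the counts. The shares, here and below, are over all genes without a filter, including genes with almost no reads. With only genes of mean log2 CPM 1 or more fitted, 7448 were still called, beside 7509 of all genes. The share called among such genes is thus higher, and each of the 7 genes averaged at least 2.15. The median log2 fold change of the 7 genes was -0.09, beside 0.0052 over all genes.

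**Figure D1:**
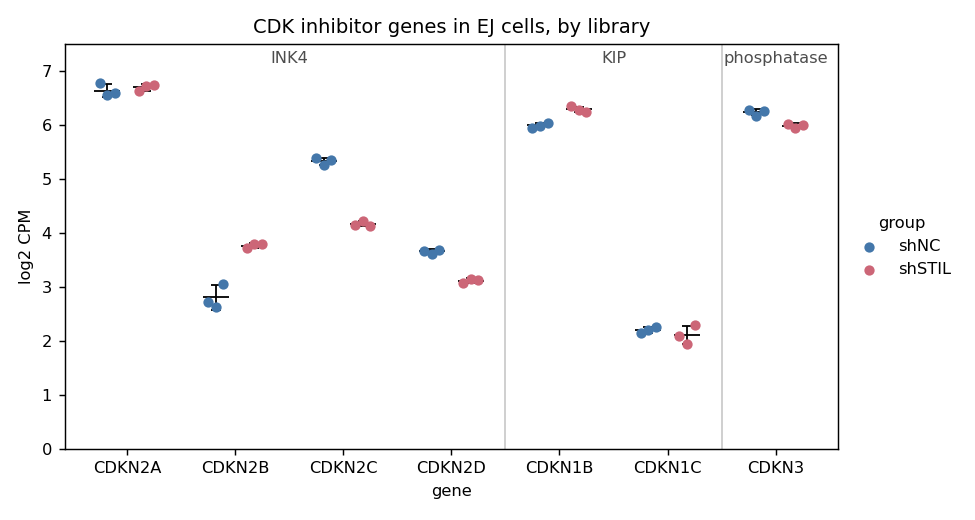
Log2 CPM (vertical axis) of the 7 genes (horizontal axis) in the 3 shNC libraries (blue) and the 3 shSTIL libraries (red), with the mean and SD of each group in black. CDKN2C falls from a mean of 5.33 to 4.17 and CDKN2B rises from 2.81 to 3.77, while the points of CDKN2A and CDKN1C overlap between the groups.

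CDKN2C encodes p18-INK4c and lies on the plus strand of chromosome 1 from 50960745 to 50974633 (GRCh38, GENCODE 29), with 3 annotated coding transcripts that each have their own start. CDKN2C stood at log2 CPM 5.38, 5.25 and 5.35 in the shNC libraries and 4.15, 4.23 and 4.13 in the shSTIL libraries. All shSTIL libraries were far below all shNC libraries, and the SD within a group was at most 0.07. These values rest on 620 to 666 reads per shNC library and 296 to 320 per shSTIL library. The log2 fold change of CDKN2C was -1.16 (95% interval -1.29 to -1.03, standard error 0.06, limma adjusted p = 2.2e-09), which ranked 336 of 15953 genes by fall. By permuting the group labels in all 20 ways (exact, two-sided), p was 0.1 for CDKN2C and for each of the other called genes, the smallest that 3 libraries against 3 allow, and 0.5 for CDKN2A and CDKN1C.

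CDKN2D encodes p19-INK4d and lies on the minus strand of chromosome 19 from 10566462 to 10569059. CDKN2D stood at log2 CPM 3.67, 3.62 and 3.69 in the shNC libraries and 3.06, 3.15 and 3.13 in the shSTIL libraries, from 198 to 203 and 141 to 151 reads. Every shSTIL library was below every shNC library, and the SD within each group was at most 0.05. On the log2 scale CDKN2D changed by -0.54 (95% interval -0.73 to -0.35, standard error 0.09, limma adjusted p = 1.4e-04). CDKN2D thus fell less than CDKN2C: the log2 difference of CDKN2C minus CDKN2D was 1.67 ± 0.04 in shNC and 1.05 ± 0.05 in shSTIL (SD, n = 3, exact permutation p = 0.1, no overlap).

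CDKN2B encodes p15-INK4b and lies on the minus strand of chromosome 9 from 22002903 to 22009363. Its log2 CPM was 2.72, 2.63 and 3.06 in the shNC libraries and 3.71, 3.80 and 3.79 in the shSTIL libraries. The shSTIL libraries lay close together and above all shNC libraries, among which replicate 3 was the highest. The gene had 99 to 131 reads per shNC library and 222 to 237 per shSTIL library. CDKN2B thus had a log2 fold change of 0.96 (95% interval 0.71 to 1.21, standard error 0.12, limma adjusted p = 9.7e-06), which ranked 576 by rise. It was 0.87 to 1.09 when 1 library was left out in turn, with an adjusted p of at most 0.0084.

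CDKN2A encodes p16-INK4a and, from an upstream first exon in another reading frame, the ARF protein, which binds MDM2. It lies on the same strand 7601 bases away from CDKN2B, from 21967753 to 21995301, and the gene-level values join both products. Its log2 CPM was 6.77, 6.55 and 6.59 in the shNC libraries and 6.63, 6.73 and 6.74 in the shSTIL libraries, from 1522 to 1822 reads. The groups overlapped, since shNC replicate 1 had the highest value of all 6 libraries. The log2 fold change was 0.06 with a 95% interval of -0.05 to 0.18 (limma adjusted p = 0.36), an interval that leaves out a change of the size seen for CDKN2B. CDKN2A and CDKN2B are alike in sequence and the authors' counting can share reads between such genes. Summing the reads of both gave a log2 fold change of 0.14 (95% interval 0.03 to 0.25, limma adjusted p = 0.032), which did not pass 0.01. Most of these reads are CDKN2A reads, so the sum follows that gene, and the part of shared reads in the rise of CDKN2B was not tested.

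**Figure D2:**
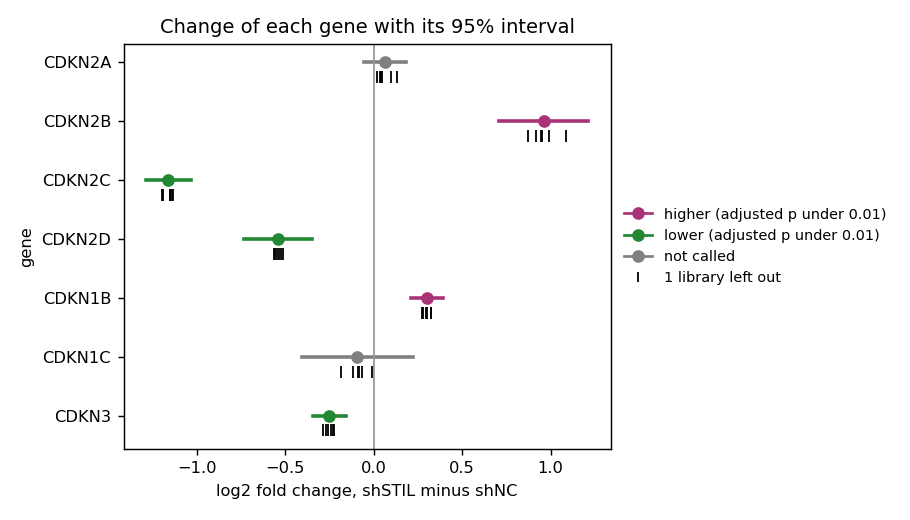
Log2 fold change of each gene, shSTIL minus shNC (horizontal axis), with its limma 95% interval (bars), coloured by the call, and the values with each library left out in turn (black ticks). The intervals of CDKN2A and CDKN1C cross 0, while CDKN2B at 0.96 and CDKN2C at -1.16 lie on opposite sides.

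The INK4 genes therefore changed unequally with respect to each other within the same libraries. The log2 CPM of CDKN2B minus that of CDKN2C was -2.66, -2.62 and -2.29 in the shNC libraries and -0.44, -0.43 and -0.34 in the shSTIL libraries. The groups did not overlap, and the difference moved by 2.12 on the log2 scale. CDKN2A minus CDKN2C moved by 1.22, from 1.31 ± 0.08 in shNC to 2.53 ± 0.07 in shSTIL (SD, n = 3). In each of the 7 pairs compared, the 6 pairs of INK4 genes and CDKN1B with CDKN1C, the groups did not overlap. The exact two-sided permutation p was 0.1 for each, and Benjamini-Hochberg adjustment over the pairs leaves it at 0.1. The pairs share genes and libraries and follow from the changes of the single genes, so they add no separate support. Of all single genes, 60.3% did not overlap, and the share over all gene pairs was not computed.

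CDKN1B encodes p27-KIP1, an inhibitor that accumulates in quiescent cells and is destroyed by the SKP2 ubiquitin ligase as cells enter S phase. It lies on the plus strand of chromosome 12 from 12715058 to 12722371. CDKN1B stood at log2 CPM 5.95, 5.98 and 6.04 in the shNC libraries and 6.34, 6.28 and 6.24 in the shSTIL libraries, from 989 to 1047 and 1285 to 1387 reads. Each shSTIL library was above each shNC library. CDKN1B changed by 0.30 on the log2 scale (95% interval 0.21 to 0.39, standard error 0.04, limma adjusted p = 3.5e-05), a 1.23-fold rise.

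CDKN1C encodes p57-KIP2 and is an imprinted gene on the minus strand of chromosome 11 from 2883213 to 2885773. Its log2 CPM was 2.14, 2.20 and 2.25 in the shNC libraries and 2.09, 1.94 and 2.29 in the shSTIL libraries. The groups overlapped, and the shSTIL libraries held both the lowest and the highest value. Only 64 to 81 reads per library lie behind these values. The log2 fold change was -0.09 with a 95% interval of -0.40 to 0.22 (limma adjusted p = 0.61). This interval leaves out a rise of the size seen for CDKN1B (0.30) but not a fall of that size.

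CDKN3 lies on the plus strand of chromosome 14 from 54396849 to 54420218. Its log2 CPM was 6.28, 6.17 and 6.26 in the shNC libraries and 6.03, 5.93 and 6.005 in the shSTIL libraries, from 1176 to 1247 and 1050 to 1113 reads. The groups did not overlap, with shNC replicate 2 nearest to the shSTIL libraries. CDKN3 changed by -0.25 on the log2 scale (95% interval -0.34 to -0.16, standard error 0.04, limma adjusted p = 2.1e-04). The call was lost in 4 of the 6 fits that each left out 1 library, without shNC replicate 1 or 3 and without shSTIL replicate 2 or 3, with an adjusted p of up to 0.013, and it was lost with each gene's own variance (0.013).

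Levels of different genes were ranked as CPM per kilobase of the longest annotated coding transcript, relative to the scaled library size. The differences of log2 CPM given above take no account of length, so only their change between the groups is read. On this scale the order in shNC was CDKN2A (77.5 ± 6.6), CDKN3 (70.5 ± 2.8), CDKN1B (23.9 ± 0.79), CDKN2C (13.8 ± 0.63), CDKN2D (8.8 ± 0.22), CDKN1C (2.3 ± 0.09) and CDKN2B (1.8 ± 0.29; SD, n = 3). No neighbours in this order overlapped between libraries. In shSTIL, CDKN2C (6.2 ± 0.22) came down to the level of CDKN2D (6.0 ± 0.20), and these neighbours overlapped. CDKN2B (3.4 ± 0.11) stood above CDKN1C (2.2 ± 0.27) in every shSTIL library, whereas it was below CDKN1C in every shNC library. The places of CDKN2A and of CDKN1C depend on the length taken: over the union of all annotated exons, CDKN3 came first in both groups, CDKN2A overlapped with CDKN1B in shNC and was below it in shSTIL, and CDKN1C overlapped with CDKN2B in shNC.

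CDKN2A held the largest share of INK4 mRNA of the 4 genes on both length scales. Per kilobase of longest coding transcript, its share of the summed INK4 level was 74.9% to 77.4% in the shNC libraries and 83.5% to 84.2% in the shSTIL libraries, and over the exon union it was 49.3% to 52.9% and 62.0% to 63.1%. The share of CDKN2C went from 13.6% ± 0.52 to 6.4% ± 0.27 and that of CDKN2B from 1.7% ± 0.32 to 3.6% ± 0.02 on the first scale (SD, n = 3). The summed level was 102 ± 7.2 CPM per kilobase in shNC and 96.5 ± 3.8 in shSTIL and overlapped between the groups on this scale. Over the exon union it was 45.1 ± 2.6 and 38.4 ± 1.4 without overlap.

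**Figure D3:**
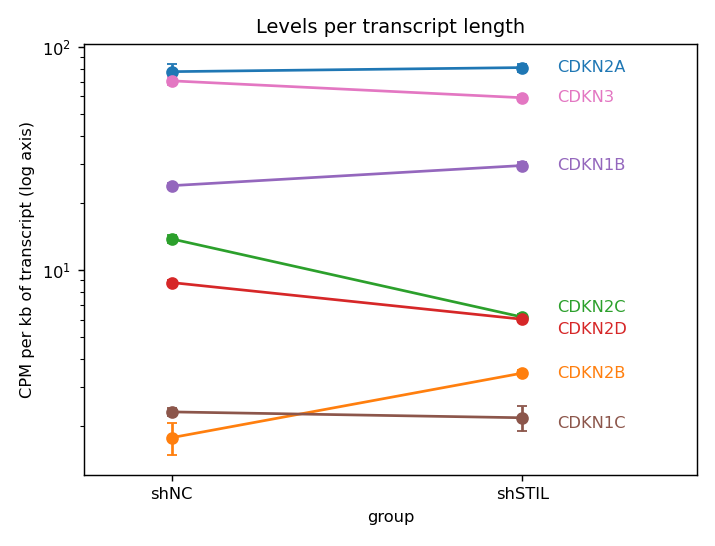
CPM per kilobase of the longest coding transcript (vertical log axis) for the 7 genes in shNC and shSTIL, as mean and SD of 3 libraries. The lines of CDKN2C and CDKN2D meet near 6 in shSTIL, and that of CDKN2B crosses above CDKN1C.

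The kinases and cyclins that these inhibitors bind were read from lists of names. All 7 KIP partners fell, against 23.6% of all genes (median log2 fold change -0.84), among them CCNE2 at -2.80, CCNE1 at -1.09 and CCNA2 at -0.92, the cyclins that activate CDK2, and CDK2 itself at -0.84. CDK1, a substrate of the CDKN3 phosphatase, fell by 0.45 on the log2 scale. The 5 INK4 partners had calls in both directions: CDK6 (log2 fold change 1.00) and CCND1 (0.29) rose, CDK4 (-0.21) fell, and CCND3 (-0.18, adjusted p = 0.023) and CCND2 (at most 5 reads in a library) were not called. Thus CDK6, which CDKN2B and CDKN2C proteins bind, rose about 2.0-fold while CDKN2C fell to 0.448-fold. Among the pocket proteins, the substrates of these kinases, RBL1 fell (-0.53) while RB1 (0.10) and RBL2 (0.08) were not called.

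Of 8 genes for the turnover of CDKN1B protein, 4 fell and 1 rose, against 23.6% and 23.5% of all genes, with a median log2 fold change of -0.12, and no departure from the background is read from so few genes. SKP2, which recognises CDKN1B, fell by 0.37, the ligase subunit RBX1 fell by 0.98, UBAC1 fell by 0.24, SKP1 fell by 0.19, and CUL1 rose by 0.21, all on the log2 scale. The cofactor CKS1B was not called (0.09). The remaining KIP gene, CDKN1A, is not one of the 7 and rose by 0.22 on the log2 scale (8.38 to 8.59, limma adjusted p = 3.7e-05), beside 0.30 for CDKN1B. Of the 9 genes in its list of other CDK regulators, 4 fell, including the inhibitory kinase PKMYT1 (-0.79) and the activating phosphatases CDC25C (-0.40) and CDC25A (-0.39), and 2 rose, against 23.6% lower and 23.5% higher among all genes.

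**Figure D4:**
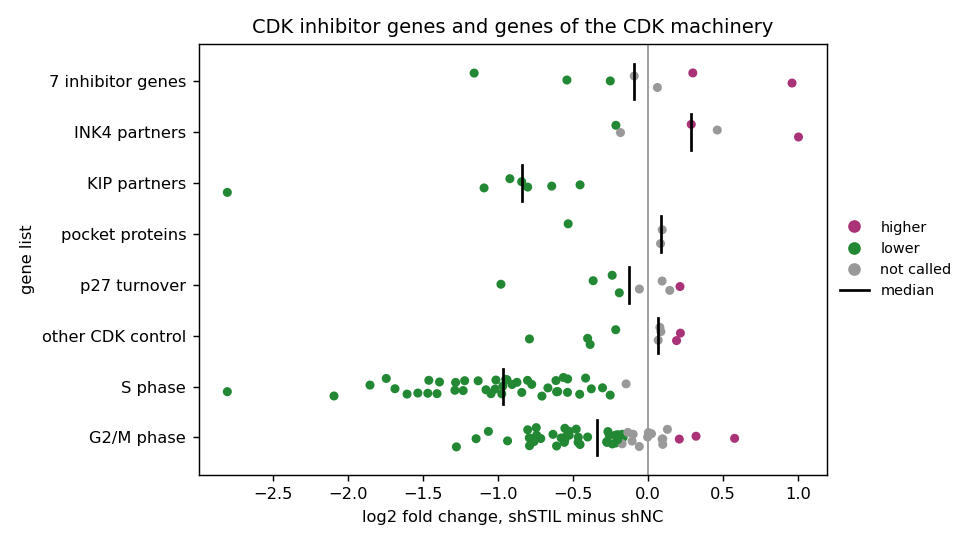
Log2 fold change, shSTIL minus shNC (horizontal axis), of each gene in the 7 inhibitor genes and in 7 lists of CDK machinery and cell cycle genes (vertical axis), coloured by the call, with the median of each list as a black line. The inhibitor genes spread to both sides of 0, whereas all KIP partners and all S phase genes lie below it.

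Genes of the cell cycle phases moved with the same groups. Of 43 S phase genes, 42 fell, with a median log2 fold change of -0.97, led by CCNE2 (-2.80), RRM2 (-2.09), a subunit of ribonucleotide reductase, and MCM4 (-1.85), part of the replicative helicase. Of 54 G2/M genes, 39 fell and 3 rose, with a median of -0.34, and NUSAP1 (-1.28), DLGAP5 (-1.15) and TUBB4B (-1.06) fell most. These counts stand beside the background of 23.6% lower and 23.5% higher. CCNE2, CDK1 and CCNB2 are in the KIP partner list as well. In these bulk libraries, fewer cells in a phase and less RNA per cell cannot be told apart, and the part of the phase genes in the changes of CDKN2C, CDKN2D and CDKN3 was not tested.

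The genes whose profile over the 6 libraries was nearest to each called member were taken among 9937 others whose log2 CPM averaged 3 or more, by the Euclidean distance of log2 CPM centred on each gene's mean. For CDKN2C they were POLD1, the catalytic subunit of DNA polymerase delta (distance 0.066), TONSL, a replication fork repair factor (0.082), and PHB (0.095). For CDKN2B they were CCDC92 (0.18), ZBED9 (0.20) and RILPL1 (0.21). For CDKN1B they were FNIP1 (0.039), DMTF1 (0.043) and PTPN12 (0.045), for CDKN2D SRSF9 (0.020), ARPC1B (0.041) and TAGLN2 (0.051), and for CDKN3 ARID1A (0.028), EEF1AKNMT (0.042) and ZNF384 (0.052). With 2 groups of 3, such profiles are set mainly by the size of the change between the groups.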

How the data were processed

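The deposited log2 CPM of all 6 libraries were used. According to the methods, sequencing was on a BGISEQ-500, SOAPnuke was the read filter, Bowtie2 the aligner against a transcriptome and RSEM the source of gene-level estimates, from which the authors obtained CPM in edgeR. The submitters' processing notes also name hg38 and limma, and versions are not given in the sources used here. The deposited estimated counts (4 libraries) differed by at most 0.145 reads from those recovered from the log2 CPM spacing. Over all 6 libraries, 87.1% to 87.8% of recovered values were within 0.01 of a whole read. Limma 3.58.1 (lmFit, eBayes with trend; R 4.3.3) was fitted to all 15953 genes without a filter, with Benjamini-Hochberg adjustment and a threshold of 0.01. Log2 fold changes are on the authors' scale, whose prior count understates changes of low genes. Recovered reads were rounded for edgeR 4.0.16 and DESeq2 1.42.0. On simulated data the limma fit missed more of the changed genes than edgeR did and made more false calls than its threshold allows, so each member's call was checked in edgeR and DESeq2, which made the same calls for all 7, and the list counts and background were recomputed in edgeR, an alternative chosen after seeing the data.

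The 7 genes and the lists were chosen with earlier results of these data known. The genes named are the members, STIL, the 3 largest changes of each list among genes called whose log2 CPM averaged 1 or more, any whose role a result turns on, and the 3 nearest profiles of each called member. Positions are from GENCODE 29. Reads from overlapping or similar genes cannot be told apart fully. Deviations from the group means correlated at -0.032 to 0.023 between libraries that share a replicate number, so the numbers do not pair them.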

Additional observations from a re-analysis of the deposited data

How the results depend on the processing

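The alternatives were no trend, each gene's own variance, quantile normalization, median centring, a mean log2 CPM of at least 1, an adjusted p under 0.05, an added minimum change, edgeR, DESeq2, a prior count of 0.25, a replicate block, and leaving out each library. Of these 17, 6 leave the estimates as they are and change only the test or threshold, and none of the other 11 turned the direction of any of the 7 genes. The calls of CDKN1B, CDKN2B, CDKN2C and CDKN2D and the absence of a call for CDKN2A and CDKN1C held in all of them except where a minimum change was added. With an absolute log2 fold change above 1 also required, 1 of the 7 genes, CDKN2C, and 951 of all genes were left, and CDKN1B (0.30), CDKN2B (0.96), CDKN2D (-0.54) and CDKN3 (-0.25) were lost by construction. With each gene's own variance CDKN3 (-0.25) was lost too (adjusted p = 0.013) and 4784 of all genes were called. When 1 library was left out, CDKN3 ranged from -0.28 to -0.22 and lost its call in 4 of 6 fits, and the members called were 4 to 5. The genes called ran from 4900 to 5638, with 4900 without shSTIL replicate 3, and these fits have fewer libraries. The replicate block gave 6898 genes and 5 members called and changed no member's call. Over the alternatives that kept all libraries, CDKN2A ran from 0.06 to 0.11 and CDKN1C from -0.09 to -0.04. With 1 library left out, CDKN2A ranged from 0.02 to 0.13 (adjusted p down to 0.055) and CDKN1C from -0.18 to -0.0077, so neither size is settled by these libraries. In the log2 fold changes of the same 6 leave-one-out fits, CDKN1B ranged from 0.27 to 0.33, CDKN2B from 0.87 to 1.09, CDKN2C from -1.20 to -1.13 and CDKN2D from -0.56 to -0.51. Median centring moved the median of all genes by 0.043 on the log2 scale and the share of higher among genes called from 49.9% to 55.5%. In edgeR 24.4% of all genes were higher and 24.7% lower, 15329 of 15953 genes had the same call as in limma, and of the gene lists only INK4 partners (2 lower), p27 turnover (2 higher) and G2/M phase (40 lower) had another count. CDKN1C rests on 64 to 81 reads per library.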

Other observations

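Genes known to act on transcription of the inhibitor genes were read from a list of 23, of which 9 rose and 5 fell, against 23.5% and 23.6% of all genes (median log2 fold change 0.12). Among those known to act on CDKN2A, ETS1, an activator, rose by 1.20 on the log2 scale (8.01 ± 0.06 to 9.21 ± 0.02 log2 CPM; SD, n = 3), ETS2, another activator, fell by 0.45 (5.24 to 4.80), and ID1, which opposes ETS factors, fell by 2.10 (6.62 to 4.51). The Polycomb gene EZH2 fell by 0.41 and BMI1 rose by 0.58. CDKN2A itself was not called (0.06). Among genes around TGF-beta signalling, which acts on CDKN2B, the receptor gene TGFBR2 rose by 0.84, TGFBR1 fell by 0.69 and SMAD3 rose by 0.12. TGFB1 (-0.10), SMAD2 (0.10) and SMAD4 (0.06) were not called. MYC, a repressor of CDKN2B, rose by 0.73. FOXO3, an activator of CDKN1B, rose by 0.19, while FOXO1 (0.17, limma adjusted p = 0.013) and FOXO4 (0.16) were not called. The other genes called in this list were MEN1, which fell by 0.29, and KLF4 (0.69), CBX7 (0.25) and RING1 (0.21), which rose. MDM2, the partner of ARF, fell by 0.93, and NPM1 was not called. These are mRNA levels and not activities, and the part of any of these genes in the changes of the 7 genes was not tested.

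The rise of CDKN2B was not shared by all of its measured neighbours on chromosome 9. Of 6 such genes, 2 rose and 0 fell, against 23.5% and 23.6% of all genes. MTAP was not called (0.04 on the log2 scale, limma adjusted p = 0.43), while KLHL9 (0.38) and FOCAD (0.30) rose. DMRTA1, with 26 to 35 reads per library, was not called, nor were HACD4 and ELAVL2, with at most 3 and 2 reads. Around CDKN1C on chromosome 11, 2 of 6 measured genes rose and 1 fell. PHLDA2 rose by 0.52 and CARS1 by 0.47, and NAP1L4 fell by 0.33. SLC22A18 (0.01), IGF2 (-0.38, 53 to 90 reads per library) and KCNQ1 (at most 1 read) were not called, as CDKN1C was not. With so few genes, no departure from the background shares is read around either locus.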
